A study of Mus musculus with 4 samples.

Results

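Signal steps that follow G protein-coupled receptors were examined in splenic Esam dendritic cells (DC) that had lost the transcription factor Runx3. The list held 45 genes for heterotrimeric G proteins, their regulators, the enzymes that make and break cyclic nucleotides, and the kinases that act below them, with receptors and phospholipase C left out. A member was measured where a probe set carried its symbol alone and reached a log2 value of 6.5 on at least 1 array, the background limit in the study's methods, and the brightest probe set stood for the gene. Of the 45 members 40 were measured, among 9894 genes measured in all. Adcy3 and Adcy9, both adenylyl cyclase genes, stayed below the limit on all 4 arrays, with highest values of 6.04 and 6.26. The probe sets of Gnas, the stimulatory alpha subunit, and Prkaca, a catalytic subunit of protein kinase A, were annotated with a further gene, and no probe set was listed for Rgs10, so none of these was used.

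The cKO group (DCRunx3 -/-, n = 2) came from mice in which floxed Runx3 was deleted by Cre under the CD11c promoter, and the wt group (DCRunx3 +/+, n = 2) consisted of their littermates. Each of 2 litters gave 1 mouse of each genotype, 6 weeks old, and 1 Affymetrix array was run per mouse. The controls are called Runx3 fl/fl mice in the legends of the study and wt in the labels. CD11c is expressed by other cells besides Esam DC, so the deletion itself was not confined to this population. Fresh spleen cells positive for CD11c and MHC class II were sorted by flow cytometry on Esam, CD4 and CD8. The legend of the study gives the sorted cells as CD4-positive with high Esam, a gate that would leave out CD8-positive DC. Values are log2 values from robust multichip averaging (RMA), each difference is the cKO mean less the wt mean of these log2 values, and SD refers to 2 arrays.

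All 12 conventional DC markers were measured, 7 higher and 5 lower in cKO, with averages of 11.84 and 11.87 in cKO and 11.78 and 11.77 in wt. The gate markers Esam and Cd4 were at 10.60 and 10.64, and at 11.98 and 12.09, in cKO, against 10.42 and 10.10, and 11.69 and 11.64, in wt. Among the 12, Itgam was higher (0.75) past the study's thresholds, given below, and Zbtb46 had the lowest difference (-0.28). The labels give all 4 mice as male, but Xist was at 12.78 (cKO) and 12.75 (wt) in litter 1 and at 5.19 and 5.15 in litter 2. The Y-linked gene Kdm5d went the other way, at 5.19 and 5.27 in litter 1 and 9.89 and 9.84 in litter 2. The litters thus split as females and males would, against the labels. A difference between litters cannot be told apart from one between sexes. Each genotype held an array of either kind, and differences are given within each litter as well. The Runx3 probe set was at 11.47 and 11.45 in cKO, against 11.37 and 11.51 in wt. No source used here says whether it covers the deleted part, so it does not check the labels. Apart from these arrays, the study reports by Western blot that CD4-positive DC of this deletion strain had no Runx3 protein. Markers of cDC1, the CD8-positive splenic DC, averaged 10.10 and 10.14 in cKO and 9.35 and 9.17 in wt over 14 measured of 15, with 12 higher. Macrophage markers averaged 9.87 and 10.06 in cKO and 8.94 and 9.61 in wt, with 13 of 13 measured higher. Monocyte markers that reached the limit in both genotypes averaged 10.71 and 10.87 in cKO and 9.91 and 9.96 in wt, 5 of 5 higher. Of 10 listed plasmacytoid DC markers 7 were measured, 5 higher and 2 lower in cKO. They averaged 8.49 and 8.62 in cKO and 7.94 and 7.96 in wt. Cox6a2, at 6.36 and 6.77 in wt and so close to the limit, had the widest difference among them (2.68). Bst2 and Irf7 were the lower ones (-0.12 and -0.43). Of the B cell markers reaching the limit in both genotypes 3 were higher and 3 lower. Only 1 of the 9 listed neutrophil markers, Csf3r, was measured, and it was 2.43-fold higher in cKO. The T cell markers measured (2 of 10) were lower in cKO, and of the NK cell markers measured (2 of 7) 1 was higher and 1 lower. Ccr2 (monocyte) and Fcer2a (B cell) reached the limit in cKO only and were left out of these counts. In sorted cells measured in bulk, a different share of a cell type and a different amount of RNA per cell cannot be told apart.

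A ligand-bound receptor makes a G alpha subunit exchange GDP for GTP and part from its beta-gamma pair, and both then act on effectors. Alpha subunits of the Gs class stimulate adenylyl cyclase and those of the Gi class restrain it, while the Gq class activates phospholipase C beta. RGS proteins speed GTP hydrolysis and so end the signal, receptor kinases and arrestins silence the receptor, and phosphodiesterases degrade the cyclic nucleotides. In DC, Gi-coupled chemokine receptors steer migration, and cyclic AMP acting through protein kinase A modulates cytokine output and maturation.

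Gng12 alone among the 40 measured members passed the thresholds of the study's methods, which ask for a fold of 1.5 or more in either direction and an unadjusted 0.05 in a one-way test. Gng12 encodes a G gamma subunit, the small prenylated partner that holds a G beta subunit at the membrane. Its values were 9.54 and 9.47 in cKO, against 8.50 and 8.34 in wt. Both cKO arrays were thus about 1 log2 unit above both wt arrays, and the groups did not overlap. The means were 9.51 ± 0.05 in cKO and 8.42 ± 0.11 in wt (SD, n = 2 each). Expression was 2.13-fold higher in cKO, a difference of 1.09 (standard error 0.10) with a 95% interval of 0.82 to 1.37. The difference was 1.04 in litter 1 and 1.14 in litter 2. It was 1.06 without cKO replicate 1, 1.12 without cKO replicate 2, 1.17 without wt replicate 1 and 1.01 without wt replicate 2. Each such fit leaves 1 residual degree of freedom and takes its spread from 1 genotype. Whether Gng12 passed the study's thresholds then depended on the array left out.

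With p-values adjusted over all 18889 tested probe sets, 0 of the 40 members passed 0.05 in limma, nor did any other probe set (0% called), and the value for Gng12 was 0.159. When 1 probe set per gene was fitted, over 9894 genes, Gng12 passed in limma with an adjusted p of 0.0350 as the single member to do so, where 0.424% of genes passed. With the litter as a block in that fit its adjusted p in limma was 0.0048, and 4.13% of genes passed. The block was added to that fit after seeing the data, and it leaves 1 residual degree of freedom. The share of members past the study's thresholds was 2.5% (1 of 40), against 1.41% of all tested probe sets. Most of the cDC1, macrophage, monocyte and plasmacytoid DC markers given above, and Csf3r, had higher values in cKO in the same arrays, and their part in the Gng12 difference, and in those given below, was not tested.

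The sequence before the first RefSeq start of Gng12 is shown because Gng12 gave the widest difference of the 40 members, with that of Pde1b, described below, which also holds the motif marked. Both are 250 bases on the plus strand of GRCm38.p6, chr6:66896147-66896396 for Gng12 and chr15:103502784-103503033 for Pde1b, and capitals mark TGTGGT, the core RUNX motif, on either strand.
Gng12: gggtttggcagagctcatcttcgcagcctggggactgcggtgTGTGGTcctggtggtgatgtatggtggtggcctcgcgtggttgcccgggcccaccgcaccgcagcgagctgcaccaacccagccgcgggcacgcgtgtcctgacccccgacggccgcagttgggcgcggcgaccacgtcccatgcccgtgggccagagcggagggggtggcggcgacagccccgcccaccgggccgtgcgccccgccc
Pde1b: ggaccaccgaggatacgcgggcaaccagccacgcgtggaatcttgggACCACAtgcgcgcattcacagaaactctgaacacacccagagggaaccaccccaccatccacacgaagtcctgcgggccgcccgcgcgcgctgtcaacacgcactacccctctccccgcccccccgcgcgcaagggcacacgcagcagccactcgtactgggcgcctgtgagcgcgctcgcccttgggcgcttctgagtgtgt
The motif began 208 bases before the start of Gng12, and on the opposite strand 203 bases before that of Pde1b. As both sequences shown hold a match, they do not tell how common the motif is. Prkce, with a wider difference than Pde1b (0.32 against 0.29), was not among the members with a match.

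RefSeq held promoter windows (250 bases before to 50 after a start) for 29 of the 40 measured members, 56 windows in all. TGTGGT, searched on both strands, was in 10 of them (17.9%), against 16.8% of 32851 windows of all genes. The members concerned were Gng12, Pde1b, Gna12, Pde2a, Pde4b, Adcy7 and Prkar1a, most of which differed little between the genotypes. The cyclic AMP response element TGACGTCA, which contains the shorter motif TGACGT, was found for 1 member, Prkar1a (2 of 56 windows, 3.57%, against 1.79% of all). TGACGT, windows with the full element included, was in 7.14% of the members' windows and 7.51% of all, at Prkar1a, Pde4b and Rgs2. These matches are a description of the letters in the windows.

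Among the G alpha subunits none of the 7 measured differed with an unadjusted p under 0.05 in limma, and the differences ran from -0.14 to 0.16. Gnai2 and Gnai3 encode the Gi alpha subunits through which chemokine receptors signal. Gnai2 was at 12.71 on both cKO arrays and at 12.72 and 12.72 in wt, a difference of -0.01 with a 95% interval of -0.23 to 0.21. The 4 arrays nearly coincided, and the sign turned when arrays were centred on the median. For Gnai3 the difference was -0.12. Of the Gq class, Gnaq was at 10.05 and 10.14 in cKO and 10.17 and 10.31 in wt, the lowest difference among the alpha subunits (-0.14). Both wt values lay just above the cKO values. Gna11 differed by -0.07. Gna15, the Gq relative of blood cells, was at 8.22 and 8.41 in cKO and at 8.15 on both wt arrays, a difference of 0.16 (95% interval -0.12 to 0.45). Of the alpha subunits of the remaining class, Gna12 differed by 0.09. Gna13 was at 11.12 and 11.26 in cKO and 11.14 and 11.24 in wt, with no direction that held across scalings.

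**Figure D1:**
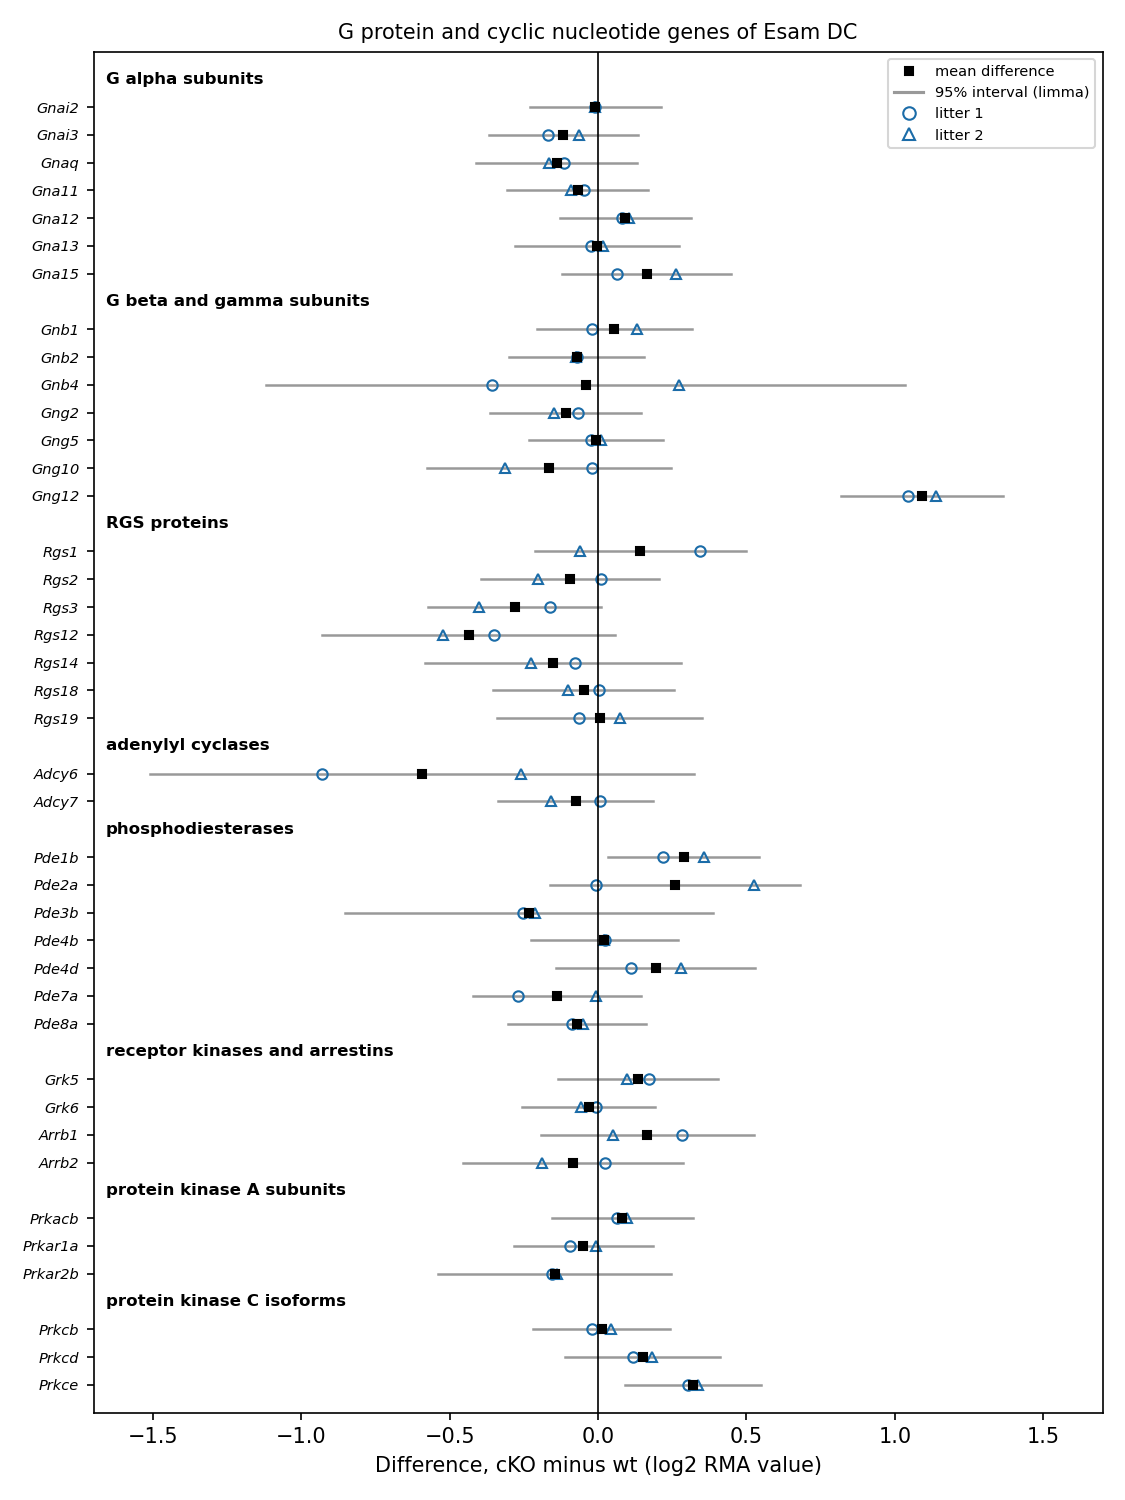
Difference between cKO and wt (log2 RMA value, x axis) for each of the 40 measured members, grouped by role. Squares are the mean difference, grey bars limma's 95% interval, circles litter 1 and triangles litter 2; Gng12 stands at 1.09 with an interval of 0.82 to 1.37, and the intervals of Pde1b and Prkce also lie above 0.

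The G beta subunits and the other G gamma subunits lay near 0. Gnb1 and Gnb2 encode beta subunits, and they differed by 0.05 and -0.07. Gnb4, a further beta subunit, was at 7.80 and 7.39 in cKO, against 8.16 and 7.12 in wt. It was high in litter 1 and low in litter 2 in both genotypes, so that the wt arrays spread more widely than the cKO arrays and the groups overlapped. Its difference of -0.04 had a 95% interval of -1.12 to 1.03, which takes in changes of 1 log2 unit either way. The gamma subunit gene Gng10 was at 9.43 and 9.50 in cKO, against 9.45 and 9.81 in wt. Its difference of -0.17 came from the wt array of litter 2, and Gng2 and Gng5 differed by -0.11 and -0.01, the second with a sign that turned under other scalings. Against these, Gng12 was the only member of the 7 measured beta and gamma subunit genes with an unadjusted p under 0.05.

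Of the 7 measured RGS genes 5 were lower and 2 higher in cKO, and none reached an unadjusted p under 0.05 in limma. Rgs12, whose product also binds inactive Gi alpha through a GoLoco motif, was at 10.21 and 10.44 in cKO, against 10.56 and 10.97 in wt. Both litters showed the lower value in cKO (-0.35 and -0.52), and litter 2 was above litter 1 in both genotypes. The difference was -0.44 (95% interval -0.93 to 0.06, limma, adjusted p = 0.577). It was -0.23 without wt replicate 2. With the litter as a block its unadjusted p was under 0.05, while its adjusted p in limma was 0.375. Rgs3 was at 10.92 and 10.89 in cKO and 11.09 and 11.29 in wt, a difference of -0.28. Its second, dimmer probe set, at 8.60 and 8.68 in cKO and 8.82 and 8.90 in wt, differed by -0.22. On both probe sets the cKO arrays lay below the wt arrays, but neither passed (limma, adjusted p = 0.544 and adjusted p = 0.570).

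Rgs1, a regulator of Gi signalling in lymphocytes and myeloid cells, was at 12.29 and 12.14 in cKO, against 11.94 and 12.20 in wt. The litters disagreed, with 0.34 in litter 1 and -0.06 in litter 2. Rgs2, which acts on Gq, differed by -0.10 and Rgs14, a further GoLoco protein, by -0.15. Rgs18, an RGS of blood cells, and Rgs19 differed by -0.05 and 0.01.

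Both measured adenylyl cyclases of the list were lower in cKO by sign, and Adcy4, outside the list, is described below. Adcy6, a cyclase that Gi and calcium inhibit, was at 7.56 and 7.32 in cKO, against 8.49 and 7.57 in wt. The wt array of litter 1 stood well above the other 3, which lay within 0.26 of each other. The difference of -0.59 (95% interval -1.51 to 0.32, limma, adjusted p = 0.695) was -0.93 in litter 1 and -0.26 in litter 2, and did not pass. Without wt replicate 1 it was -0.14, and without wt replicate 2 it was -1.05. Adcy7, a cyclase used by immune cells, differed by -0.08 (95% interval -0.34 to 0.18).

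**Figure D2:**
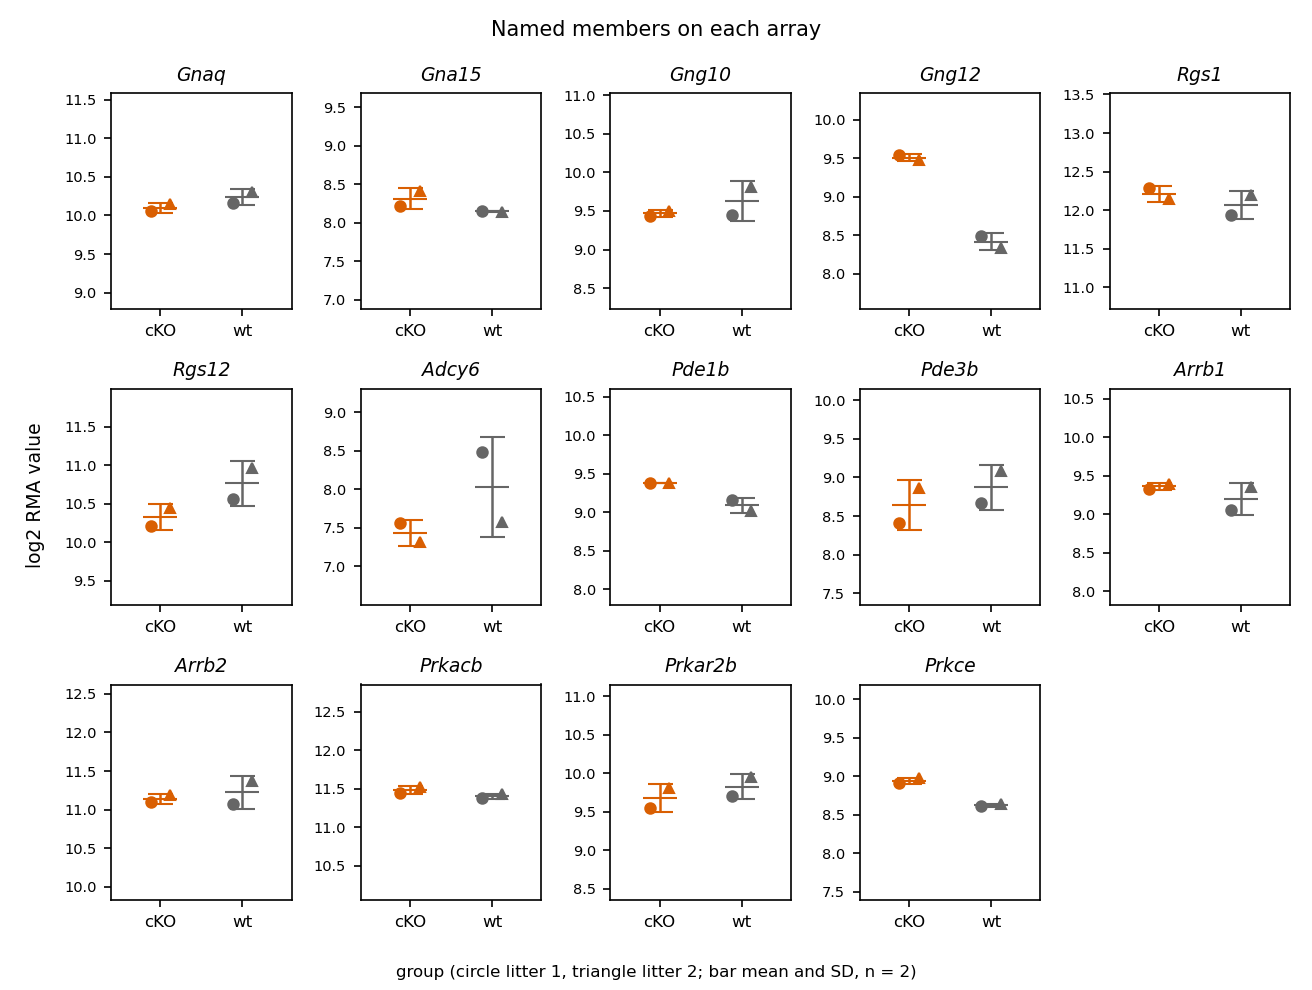
Log2 RMA values of 14 members on each array, cKO (orange) left of wt (grey), with the mean and SD of 2 arrays; circles are litter 1 and triangles litter 2, and all panels span the same range of log2 values. Gng12 lies at 9.54 and 9.47 in cKO and 8.50 and 8.34 in wt, and Adcy6 shows 1 high wt array at 8.49.

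Phosphodiesterases of the list went in both directions, 4 higher and 3 lower in cKO. Pde1b, a calcium- and calmodulin-stimulated enzyme that degrades cyclic AMP and cyclic GMP, was at 9.38 on both cKO arrays, against 9.16 and 9.02 in wt. The cKO values lay above both wt values. The difference was 0.29, or 1.22-fold, with a 95% interval of 0.03 to 0.54, and it had an unadjusted but no adjusted p under 0.05 (limma, adjusted p = 0.488). It held in both litters, at 0.22 and 0.36. The difference was 0.29 without cKO replicate 1 or cKO replicate 2, 0.36 without wt replicate 1 and 0.22 without wt replicate 2. Whether its unadjusted p stayed under 0.05 depended on the array left out, with 1 residual degree of freedom in each such fit. In the methods' one-way test on all 4 arrays its unadjusted p was 0.052.

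Pde3b, whose cyclic AMP hydrolysis is inhibited by cyclic GMP, was at 8.41 and 8.87 in cKO, against 8.67 and 9.08 in wt. Litter 2 stood above litter 1 in both genotypes (by 0.46 in cKO and 0.41 in wt), and the difference between genotypes was -0.25 in litter 1 and -0.21 in litter 2. The groups overlapped, and the mean difference was -0.23 (limma, adjusted p = 0.827). Pde2a, stimulated by cyclic GMP, was at 6.85 and 7.08 in cKO and 6.86 and 6.55 in wt, close to the limit of 6.5. The difference of 0.26 lay wholly in litter 2 (0.52, against -0.01 in litter 1). The cyclic AMP-specific enzymes differed by 0.02 for Pde4b, 0.19 for Pde4d, -0.14 for Pde7a and -0.07 for Pde8a.

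The genes that silence receptors stayed within 0.17 of 0. Arrb1 and Arrb2 encode the beta-arrestins, which uncouple phosphorylated receptors from G proteins. Arrb1 was at 9.33 and 9.40 in cKO, against 9.05 and 9.35 in wt, and Arrb2 at 11.09 and 11.18 in cKO, against 11.07 and 11.37 in wt. In both genes the wt arrays spread more widely than the cKO arrays, and the groups overlapped, with differences of 0.17 and -0.08. The receptor kinase genes Grk5 and Grk6 differed by 0.13 and -0.03.

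For protein kinase A, the receptor of cyclic AMP, 3 subunits of the list were measured. The subunit gene Prkar2a, outside the list, had a wider difference (-0.53) and is described below. The catalytic subunit gene Prkacb was at 11.44 and 11.52 in cKO, against 11.38 and 11.43 in wt, a difference of 0.08. The regulatory subunit gene Prkar2b was at 9.56 and 9.81 in cKO, against 9.71 and 9.95 in wt, and Prkar1a differed by -0.05. Prkar2b was higher in litter 2 than in litter 1 in both genotypes, and its difference of -0.15 had a 95% interval of -0.54 to 0.25.

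All 3 measured protein kinase C isoforms of the list were higher in cKO by sign, though that of Prkcb turned when quantile normalization was repeated. Prkce, an isoform that needs diacylglycerol but no calcium, was at 8.91 and 8.97 in cKO, against 8.61 and 8.63 in wt. The arrays of each genotype lay within 0.06 of each other and the groups did not overlap. Its difference of 0.32, or 1.25-fold, was 0.30 in litter 1 and 0.34 in litter 2, with a 95% interval of 0.09 to 0.55, and an adjusted p of 0.417 in limma, the unadjusted p being under 0.05. It was 0.35 without cKO replicate 1, 0.29 without cKO replicate 2, 0.31 without wt replicate 1 and 0.33 without wt replicate 2. Whether its unadjusted p stayed under 0.05 depended on the array left out, with 1 residual degree of freedom in each such fit. Prkcd, of the same calcium-independent class, differed by 0.15, and the calcium-dependent isoform gene Prkcb by 0.01.

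Over the 40 measured members the median difference was -0.04, against -0.02 over all tested probe sets. By sign 16 members were higher in cKO and 24 lower, or 19 and 21 when arrays were centred on the median. Within 0.2 of 0 lay 80% of them, against 76.6% of all genes measured. An unadjusted p under 0.05 in limma was reached by 3 members, Gng12, Prkce and Pde1b (7.5%), against 9.38% of all tested probe sets. These 3 were higher in cKO, whereas of all tested probe sets 4.57% were higher and 4.81% lower at this limit. The members' share was close to that of all probe sets and is no result about the list. With 1 probe set per gene fitted, the shares were 10% of members and 13.4% of genes. The methods' one-way test gave 0 members after Benjamini-Hochberg adjustment (0% of all tested probe sets) and 3 without it, Gng12, Prkce and Gna12 (7.5%, against 8.24%).

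The groups did not overlap for 22 members (55%), against 40.1% of all tested probe sets. The second base includes probe sets without a single gene symbol, so the shares are not directly comparable. By direction 9 members were higher in cKO (22.5%, against 16.4%) and 13 lower (32.5%, against 23.7%). Of the 22, 16 differed by under 0.2, among them Gnai2 with its difference of -0.01. The direction was the same in both litters for 28 members, 11 higher and 17 lower, and opposite for 12. Between the 2 mice of a genotype the median absolute difference of the members was 0.07 in cKO and 0.14 in wt, against 0.10 and 0.16 over all tested probe sets.

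**Figure D3:**
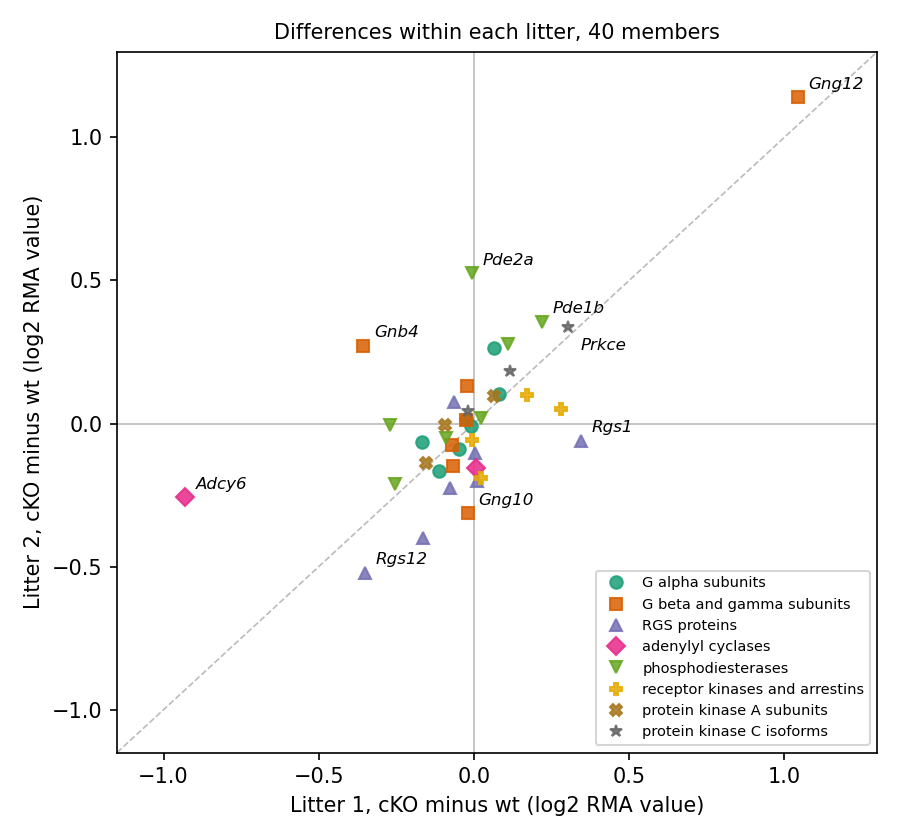
Difference between cKO and wt (log2 RMA value) within litter 1 (x axis) and litter 2 (y axis) for the 40 measured members, with marker shape and colour giving the role and the dashed line equal values. Gng12 lies at 1.04 and 1.14, Rgs12 at -0.35 and -0.52, and Gnb4 and Rgs1 lie on opposite sides of 0 in the litters.

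Other genes of the same signal steps were taken from a list of 125, of which 51 were measured and 69 stayed below the limit on all arrays. Adcy4 and Nr4a2 reached the limit in cKO only and so had to be higher there. Of the other 49, 6 had an unadjusted p under 0.05 in limma (12.2%, against the 9.38% of all tested probe sets), 2 higher and 4 lower in cKO. None passed the adjusted threshold over all probe sets or with 1 probe set per gene. With the litter as a block in the fit of 1 probe set per gene, 4.13% of genes passed. Pik3r6, Prkar2a and Vegfa were among them in limma, with adjusted p-values of 0.00365, 0.03 and 0.0303. That setting was chosen after seeing the data and leaves 1 residual degree of freedom. Without the block, the adjusted p-values of these 3 genes in limma were 0.062, 0.070 and 0.307. The study's thresholds were passed by Pik3r6 alone, among the 1.41% of probe sets that passed them. The median difference of the 51 was -0.01.

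Pik3r6, a regulatory subunit of phosphoinositide 3-kinase gamma, which is activated by G beta-gamma, was at 7.81 and 7.17 in cKO, against 9.49 and 9.28 in wt. Both cKO arrays lay more than 1 log2 unit below both wt arrays. Expression was 3.71-fold lower in cKO, a difference of -1.89 (standard error 0.25, limma, adjusted p = 0.214), which was -1.68 in litter 1 and -2.11 in litter 2. The partner subunits of that kinase lay near 0, with differences of -0.07 for the catalytic subunit gene Pik3cg and -0.09 for the further regulatory subunit gene Pik3r5.

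Of the protein kinase A genes outside the main list, the regulatory subunit gene Prkar2a was at 9.17 and 9.21 in cKO, against 9.72 and 9.71 in wt. The 2 arrays of each genotype nearly coincided, and the difference was -0.53 (95% interval -0.75 to -0.31, limma, adjusted p = 0.238). Pkib, an inhibitor of the catalytic subunit, was at 9.66 and 9.47 in cKO, against 9.92 and 9.88 in wt. It differed by -0.34, in the same direction in both litters (-0.26 and -0.41). Prkch, a calcium-independent protein kinase C, was at 11.09 and 11.14 in cKO, against 10.73 and 10.84 in wt, a difference of 0.33.

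Adcy4, an adenylyl cyclase that responds to G beta-gamma, was at 6.79 and 7.31 in cKO, against 6.09 and 6.40 in wt. Both wt values lay under the limit of 6.5, so its direction is no result. Among genes known as induced by cyclic AMP, Nr4a3, an orphan nuclear receptor, was at 8.53 and 8.66 in cKO, against 9.01 and 8.96 in wt. Vegfa, a vascular growth factor, was at 8.58 and 8.12 in cKO, against 7.91 and 7.63 in wt. These 2 thus went in opposite directions (-0.39 and 0.58). Of the 8 genes of this group that reached the limit in both genotypes 6 were higher by sign. Among those 6, the litters disagreed for Fos (0.71 in litter 1, -0.09 in litter 2), Fosb (0.56 and -0.42) and Sik1 (-0.12 and 0.31). The count by sign is therefore no result about the group.

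**Figure D4:**
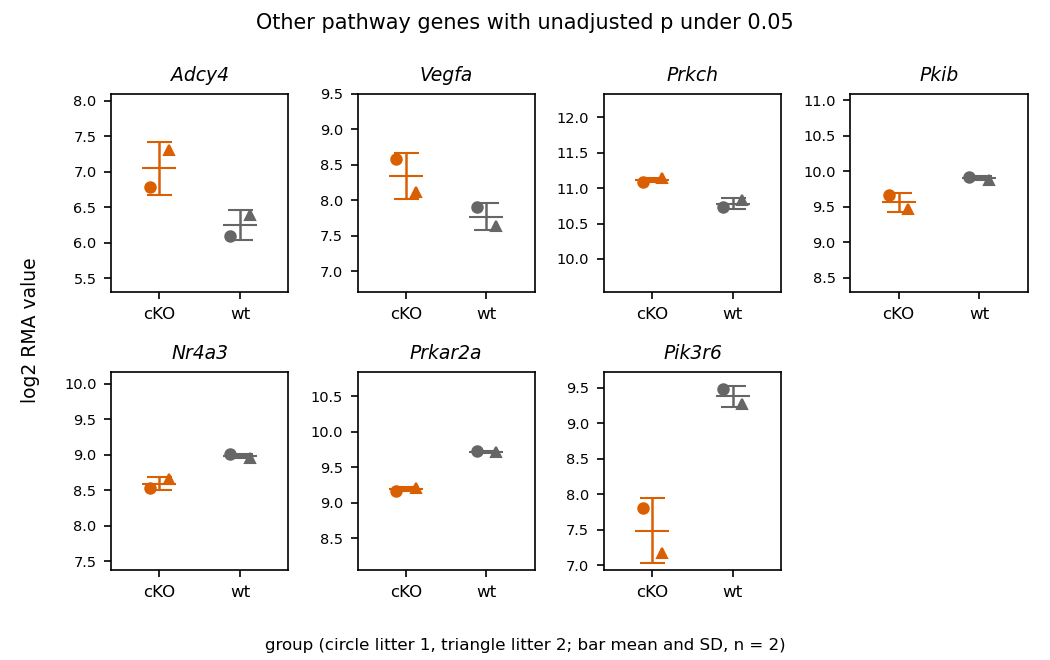
Log2 RMA values of the 7 other pathway genes with an unadjusted p under 0.05, cKO (orange) left of wt (grey), with the mean and SD of 2 arrays; circles are litter 1 and triangles litter 2. Pik3r6 lies at 7.81 and 7.17 in cKO and 9.49 and 9.28 in wt, and Adcy4 in wt lies under 6.5.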

How the data were processed

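The deposited table holds log2 values of 35399 probe sets that the authors made with Partek by RMA with GC correction, so they were background-corrected and normalized between arrays; the submitters' processing notes also name mm9. By the methods the chip was the exon type of Affymetrix mouse array, but the annotation used here belongs to the gene type. Array medians lay between 6.58 and 6.62. No depth applies to arrays; their number, 4, limits the precision.

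Gene names came from the platform annotation, where 21789 probe sets carried 1 symbol, and 21698 of these matched RefSeq by gene ID. Probe sets reaching 6.5 on at least 1 array (18889) were fitted in limma (version 3.58.1, R 4.3.3) as a two-sided comparison of cKO with wt (lmFit, eBayes), and p-values were adjusted by Benjamini-Hochberg over all of them. Residual degrees of freedom were 2, and the prior added 2.2. The fit was tested on simulated data. In limma, p-values set each difference against a spread estimated from 2 mice per group and moderated by that prior. The 2 mice of a group came from different litters, so without the block this spread includes any difference between litters or sexes. The litter, stated in the labels, pairs the arrays (correlation of deviations 0.27) and was a block in an alternative.

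The members and lists were chosen with earlier results of these data known. Values on every array are given for members with an unadjusted p under 0.05 or past the study's thresholds, and, within each role, for the member with the largest positive and the one with the largest negative difference; Rgs3, Gnai2, Gna13, Gnb4 and Pde2a were added after their values were seen, as were Pik3cg and Pik3r5. Of the other pathway genes, up to 5 per direction with the smallest p under 0.05 are named. Counts without genes that reached 6.5 in 1 genotype only were added after seeing the data.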

Additional observations from a re-analysis of the deposited data

How the results depend on the processing

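With 1 probe set per gene, 1 member passed the adjusted threshold (Gng12), against 0 over all probe sets, and 1 also with the litter block added, a setting chosen after seeing the data; there 7 members (17.5%) had an unadjusted p under 0.05, against 18.1% of all genes. Without a filter on low values the count was 5 of 42 (11.9%, against 8% of all probe sets). Leaving out 1 array gave 0 members past the adjusted threshold each time, 1 to 7 with an unadjusted p under 0.05 (1 without either cKO array; 7, or 17.5%, without wt replicate 1, against 17.2% of all) and 0 to 1 past the study's thresholds (0 without either cKO array). With 3 arrays 1 residual degree of freedom remains and the lone array is assumed to vary like the other group. With the litter as replicate block, a pairing the labels state, 4 members (10%, against 10.8% of all) had an unadjusted p under 0.05, and 0 passed the adjusted threshold. The difference of Gng12 ran from 1.01 to 1.17 over 15 settings. Leaving out 1 wt array moved Gng10 between -0.348 and 0.0158 and Arrb2 between -0.235 and 0.0686, both turning to higher in cKO without wt replicate 2. Repeated quantile normalization and median centring each turned the sign of 3 members, all with differences of at most 0.01. The cause of these shifts was not tested. The median difference of the members ran from -0.04 to -0.01 over all settings. Probe sets near 6.5 carry no detection value here, which limits Pde2a and Pde4d.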
